A study of Mus musculus with 6 samples.

Results

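The genes described here encode the non-collagen part of the extracellular matrix: adhesive glycoproteins, elastic fibre and microfibril proteins, small proteoglycans, hyaluronan enzymes, laminins with their basement membrane partners, and cell-surface proteoglycans. They are a list of 52 genes chosen by name and function, and each was read from the probe set with the highest mean intensity among those that the platform annotation assigns to that gene symbol alone. Of the 52 genes 49 had such a probe set and 47 passed a filter on low values, out of 12952 genes tested in all. The 3 genes without one, Spp1, Fbn1 and Efemp2, were not analysed here. Mfap4, whose product binds microfibrils, lay between 1.00 and 4.05 on the 6 arrays, and Has1, a hyaluronan synthase gene, between 18.5 and 33.7, so neither was tested.

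The samples were mouse inguinal fat cells differentiated in culture, 3 labelled Control and 3 labelled Rosiglitazone, each on its own Affymetrix mouse 430 2.0 array. Rosiglitazone is a thiazolidinedione that activates the nuclear receptor PPARγ, and the treated cells had 1 uM of it for 4 days. The effect is labelled Non-activated for the control cells and Beiging for the treated cells, a word for white fat cells that take on traits of heat-producing brown fat. The treatment text of the labels names the drug for all 6 samples, so groups were taken from titles and the treatment characteristic. No strain, age, sex, passage or differentiation mixture is given, and no label says whether replicates are separate cultures. The p-values therefore describe the spread among these arrays alone, and that spread may be technical.

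Fat cells are wrapped in a basement membrane, a thin sheet in which laminins and collagen IV are joined by nidogens and perlecan. Outside it lies a looser matrix of fibronectin, microfibrils, elastic fibres and hyaluronan, made largely by fibroblasts and by preadipocytes, the precursors of fat cells. Small leucine-rich proteoglycans coat collagen fibrils, latent TGF-beta binding proteins hold a growth factor in the matrix, and syndecans and glypicans carry heparan sulphate on the cell surface. Conversion of a precursor into a fat cell is known to replace much of the loose, fibronectin-rich matrix with basement membrane.

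With rosiglitazone 40 of the 47 tested genes were lower and 3 were higher at an adjusted p under 0.05 (limma, Benjamini-Hochberg over all 12952 genes). Over all genes tested 35.8% were lower and 23.6% higher, 59.4% in either direction, beside 43 of the 47 members. The median log2 change of the 47 genes was -0.70, against -0.05 for all genes tested. The largest fall was in Cemip, a gene of hyaluronan breakdown, followed by Nid2, which encodes a nidogen, and, with the probe sets used, Mfap5, which encodes a microfibril glycoprotein. The rises were small and lay in Has2, Emilin2 and Lama4.

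The falls differed widely in size. Of the 40 genes, 17 fell by 2-fold or more, 11 by 1.5-fold to 2-fold and 12 by less than 1.5-fold. The 17 are 36.2% of the tested members, beside 4.62% of all genes lower by that much, and their adjusted p was at most 9.7e-05 in limma. For 41 of the 47 genes the 3 treated arrays all lay below the 3 control arrays, 87.2% of the members beside 38.3% of all genes. For 3 members all treated arrays lay above all control arrays, as they did for 25.7% of all genes. By size of fall among all genes tested, 4 members were among the 100 largest and 16 among the 500 largest.

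The scaling of the arrays bears on the smaller of these changes. For median centring, each array was centred on the median log2 value of the probe sets that passed the filter on low values. The median change of all genes then moved by 0.12, from -0.05 to 0.07, and 37 members were lower and 7 higher. In that scaling 3285 of all genes were lower and 4558 higher, where 4635 were lower and 3057 higher as deposited, and after quantile normalization 3777 were lower and 3958 higher. After quantile normalization 40 members were lower and 5 higher.

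**Figure D1:**
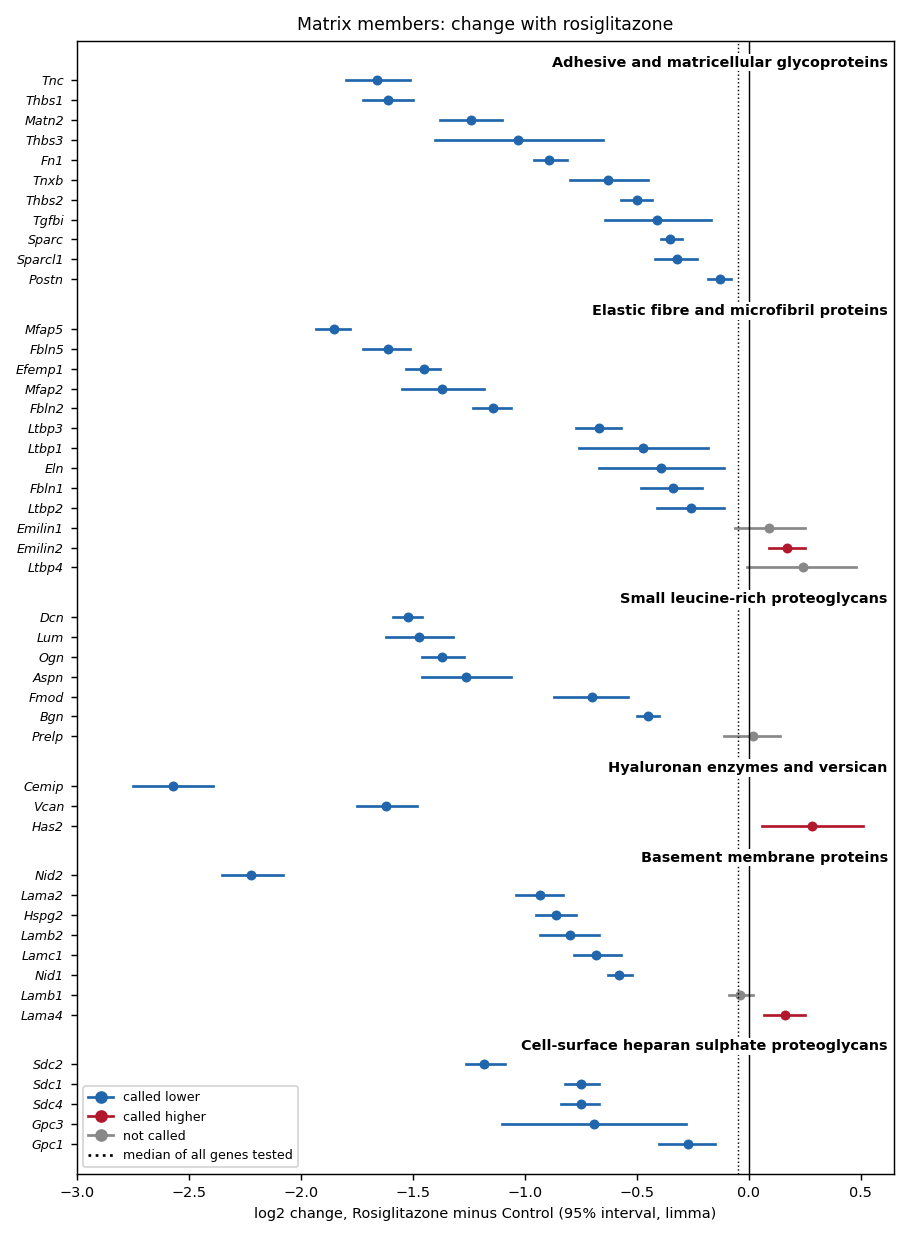
Log2 change with rosiglitazone (horizontal axis, points) and its 95% interval from limma (bars, 3 arrays against 3) for the 47 tested genes, grouped by kind of matrix protein. The solid line marks 0 and the dotted line the median of all genes tested, -0.05. Blue points are called lower, red points higher and grey points not called. Cemip lies farthest to the left at -2.57, and 3 genes are red.

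Promoters are shown for the member with the largest fall, Cemip, and for a pair of proteoglycan genes that lie close together on chromosome 13 and fell by similar amounts, Aspn and Ogn. The last pair was chosen after its values were seen, and Has2, the member with the largest rise, is named only. Each is 300 bases from RefSeq on GRCm38.p6, 250 before the annotated start and 50 after it, written along the gene. Capitals mark TATAAA, the TATA box letters, and in Ogn also GGAATG, the letters of the TEAD motif, matched on either strand. Cemip is at chr7:84086456-84086755 on the minus strand, Aspn at chr13:49544193-49544492 and Ogn at chr13:49607765-49608064, both on the plus strand.
Cemip: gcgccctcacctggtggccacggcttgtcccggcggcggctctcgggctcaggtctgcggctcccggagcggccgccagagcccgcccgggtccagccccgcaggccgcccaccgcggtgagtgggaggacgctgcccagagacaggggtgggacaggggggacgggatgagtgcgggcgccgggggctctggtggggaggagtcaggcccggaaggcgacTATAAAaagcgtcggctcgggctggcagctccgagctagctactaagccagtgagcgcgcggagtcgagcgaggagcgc
Aspn: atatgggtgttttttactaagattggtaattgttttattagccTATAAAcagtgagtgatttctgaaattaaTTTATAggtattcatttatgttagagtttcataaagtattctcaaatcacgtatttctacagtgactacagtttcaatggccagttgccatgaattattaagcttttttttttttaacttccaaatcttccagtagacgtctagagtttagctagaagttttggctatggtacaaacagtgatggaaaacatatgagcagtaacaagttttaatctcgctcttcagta
Ogn: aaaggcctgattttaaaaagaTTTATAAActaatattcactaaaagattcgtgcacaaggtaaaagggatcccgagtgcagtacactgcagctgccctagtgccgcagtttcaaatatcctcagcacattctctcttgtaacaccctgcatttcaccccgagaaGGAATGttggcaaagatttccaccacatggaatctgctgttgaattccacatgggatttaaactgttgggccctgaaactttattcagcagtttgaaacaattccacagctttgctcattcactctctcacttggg
In Cemip the TATA letters begin 29 bases before the start, and in Aspn they begin 207 bases before it, with a match on the other strand at 178. In Ogn they begin 227 bases before the start and overlap a match on the other strand that begins at 229, and GGAATG begins at 86. Promoter entries were found for 37 of the 52 genes, 49 entries in all. TATAAA stood in 8 of the 49, 16.3%, beside 13.6% of all 32851 entries, and GGAATG in 4, 8.16%, beside 14.7%. Entries of a gene can overlap, and overlapping entries of Tnc count the same TATAAA match more than once. TGANTCA, the AP-1 letters, stood in 3 entries, 6.12%, beside 7.81% of all. The DR1 motif bound by PPAR with RXR stood in 0 of the 49 and in 0.0396% of all. A match describes letters in this window and nothing about binding.

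Adhesive and matricellular glycoproteins link cells to the matrix or tune that contact, and all 11 tested members fell, with a median log2 change of -0.63. Tnc encodes tenascin C, which loosens cell adhesion. Its intensity was 349.1, 340.0 and 345.9 in control cells and 113.6, 103.6 and 111.3 with rosiglitazone, 3.15-fold lower (log2 change -1.66, SE 0.07, adjusted p = 5.4e-12 in limma). Thbs1 encodes thrombospondin 1, a matricellular protein that can activate latent TGF-beta. It read 3507, 3757 and 3873 in control cells and 1341, 1147 and 1171 in treated cells, a log2 change of -1.61 (SE 0.05). In Tnc and Thbs1 the groups were far apart and did not overlap.

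Matn2, which encodes the filament-forming adaptor matrilin 2, read 1081, 1192 and 1377 against 494.1, 522.1 and 520.0, a log2 change of -1.24 (SE 0.07). Thbs3, a dim relative of Thbs1, read 57.3, 67.4 and 78.7 against 36.2, 28.2 and 35.2, a log2 change of -1.03 (SE 0.18) that was -0.12 and not called with a floor of 64, which lies within its range. Fn1 encodes fibronectin, the main adhesive protein of the loose matrix. It read 6936, 6608 and 6618 against 3442, 3712 and 3765, 1.85-fold lower (log2 change -0.89, SE 0.03, adjusted p = 1.8e-12 in limma).

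Smaller changes were measured in the other glycoproteins. Sparc, which encodes a collagen-binding matricellular protein, read 12725, 12723 and 13018 in control cells and 9920, 10119 and 10242 in treated cells, a log2 change of -0.35 (SE 0.02). Averaged over its probe sets this change was -0.06 and not called, and its dim probe set, at 71.9 in control and 99.4 in treated cells, was called higher. Postn, which encodes periostin, had the smallest fall of the class, from 11544 ± 62.1 to 10552 ± 242.3 (mean ± SD, n = 3 each; log2 change -0.13). After median centring it was -0.01 and not called. Within each array the ratio of Tnc to Postn moved by -1.53 on the log2 scale between the groups, and no factor that scales a whole array alters this ratio. This pair and 3 other pairs below were chosen after their values were seen, so their ratios are descriptions with no test.

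The remaining members were the tenascin X gene Tnxb (log2 change -0.63), Thbs2 (-0.50), Tgfbi (-0.41), whose product is an integrin-binding protein induced by TGF-beta, and Sparcl1 (-0.32), a relative of Sparc. The call of Tgfbi depended on the settings. Its control arrays read 197.4, 190.2 and 141.9 and its treated arrays 125.8, 129.6 and 140.5, groups that nearly touched. It was lost without a filter on low values, with the lowest 20% left out and with a floor of 64 (adjusted p = 0.103, 0.0599 and 0.0760 in limma). Its 3 other probe sets fell by more, at log2 changes of -0.83, -0.88 and -1.06.

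**Figure D2:**
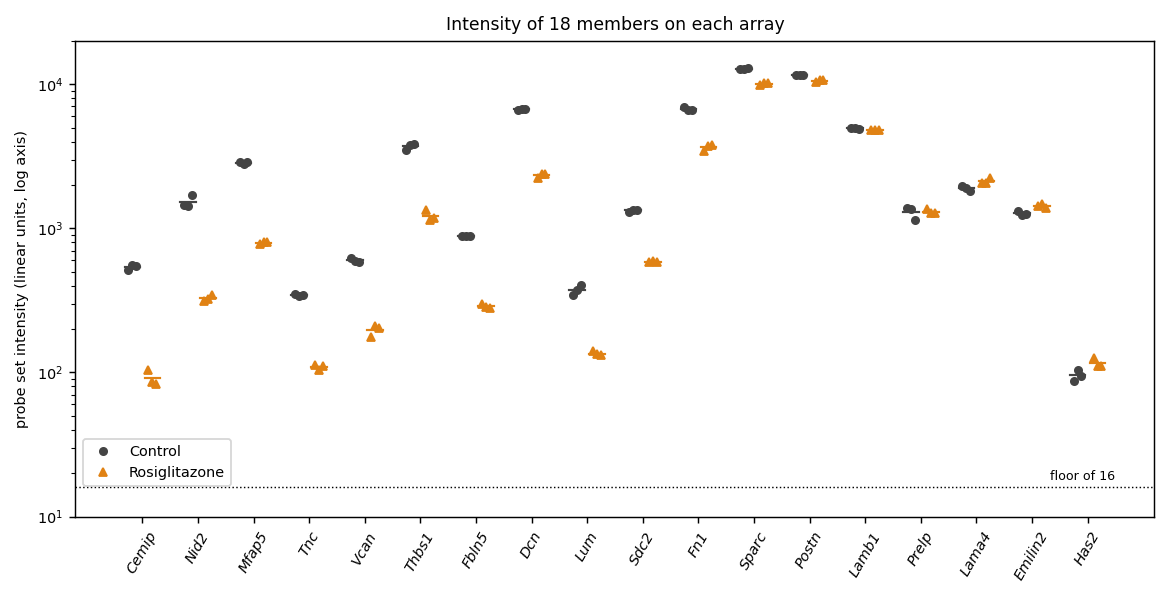
Probe set intensity (vertical axis, log scale) of 18 members on each of the 6 arrays, with control arrays as dark circles and rosiglitazone arrays as orange triangles. Short bars are group means (n = 3) and the dotted line is the floor of 16. For Cemip the control arrays read 511.7 to 556.7 and the treated arrays 83.2 to 104.0, while the 2 groups of Prelp overlap.

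Elastic fibres have an elastin core on a scaffold of fibrillin microfibrils, and fibulins join the parts. Of 13 tested members of this class 10 fell, 1 rose and 2 were not called, with a median log2 change of -0.47. Mfap5 encodes a glycoprotein bound to fibrillin. It read 2884, 2799 and 2897 in control cells and 773.9, 800.2 and 803.2 in treated cells, 3.61-fold lower (log2 change -1.85, SE 0.04, adjusted p = 8.1e-16 in limma). Its dimmer probe set had a log2 change of -1.21, and averaged over both sets Mfap5 read -1.53, a smaller fall than those of Thbs1 (-1.80), Tnc (-1.66), Fbln5 (-1.61) and Vcan (-1.58) read that way. The relative of Mfap5, Mfap2, read 269.4, 226.7 and 243.5 against 100.8, 95.7 and 90.1, a log2 change of -1.37 (SE 0.09). In Mfap5 and Mfap2 the treated arrays lay well below every control array.

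Among the fibulins, Fbln5, needed to assemble elastic fibres, read 882.4, 886.0 and 878.5 against 299.3, 284.4 and 280.9, a log2 change of -1.61 (SE 0.05). Efemp1, which encodes fibulin 3, read 4143, 4217 and 4272 against 1625, 1481 and 1513, a log2 change of -1.45 (SE 0.04). Fbln2 read 3854, 3614 and 3494 against 1578, 1717 and 1674, a log2 change of -1.14 (SE 0.04). The 3 genes thus fell by more than 2-fold with tight replicates. Fbln1 fell by less, at -0.34 (SE 0.06), but its other tested probe set read -1.20, so the size of its fall depends on the probe set.

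Elastin itself was dim. Eln read 83.5, 70.7 and 80.0 in control cells and 53.5, 65.3 and 59.7 in treated cells, a log2 change of -0.39 (SE 0.13, adjusted p = 0.0173 in limma), groups that came close without overlapping. This call ended when control replicate 1, control replicate 3 or rosiglitazone replicate 1 was left out (log2 changes of -0.34, -0.37 and -0.32) and after median centring (-0.27). The adjusted p of Eln ran from 0.0127 to 1.00 over the alternatives tried.

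The latent TGF-beta binding proteins, which tether the inactive growth factor to microfibrils, differed in direction and size. Ltbp3 fell by 0.67 on the log2 scale (SE 0.05), from 1608 ± 36.7 to 1012 ± 67.4 (mean ± SD, n = 3 each). Ltbp1 had a log2 change of -0.47 (lost with a floor of 64) and Ltbp2 of -0.26 (lost with both other scalings, at -0.14 after median centring and -0.13 after quantile normalization). Ltbp4 read 254.9, 299.2 and 223.7 in control cells and 372.3, 269.4 and 277.6 in treated cells, overlapping groups with a log2 change of 0.24 (SE 0.11, adjusted p = 0.0865 in limma). Its treated array 1 stood above all others. Ltbp4 was called higher after quantile normalization (0.35), after median centring (0.36), without control replicate 2 (0.34) and without rosiglitazone replicate 2 (0.32).

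Emilins are glycoproteins at the surface of elastic fibres. Emilin2 read 1317, 1244 and 1259 against 1428, 1469 and 1392, a rise of 0.17 on the log2 scale (SE 0.04, adjusted p = 0.00122 in limma), small but with every treated array above every control array. Emilin1 had a log2 change of 0.09 (95% interval -0.06 to 0.25, adjusted p = 0.277) and was called higher, at 0.22, after median centring and quantile normalization. Averaged over its probe sets it read -0.07 and was not called.

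Small leucine-rich proteoglycans bind collagen fibrils and set their spacing, and 6 of the 7 fell, with a median log2 change of -1.26. Dcn encodes decorin. It read 6644, 6734 and 6752 in control cells and 2242, 2364 and 2398 in treated cells, 2.88-fold lower (log2 change -1.52, SE 0.03, adjusted p = 1.2e-15 in limma). Lum, which encodes lumican, read 347.2, 372.7 and 404.6 against 140.4, 133.4 and 131.5, a log2 change of -1.47 (SE 0.07). Ogn, which encodes osteoglycin, read 3235, 3068 and 3510 against 1326, 1254 and 1221, a log2 change of -1.37 (SE 0.05). In Dcn, Lum and Ogn every treated array lay far below every control array.

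Aspn, which encodes asporin, read 606.8, 525.2 and 747.0 against 247.3, 277.2 and 253.0, a log2 change of -1.26 (SE 0.09), with wide scatter among control arrays but no overlap. Fmod, which encodes fibromodulin, fell by 0.70 on the log2 scale (SE 0.08), and 5 of its 6 probe sets were called lower. Bgn, which encodes biglycan, read 10190, 10156 and 10083 against 7551, 7427 and 7329, a log2 change of -0.45 (SE 0.02). Its 2 dimmer probe sets fell by 0.77 and 0.79 on the log2 scale, more than the bright set that represents it.

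Prelp, which encodes a basement membrane anchor, was the member of this family that was not called. It read 1381, 1366 and 1139 in control cells and 1369, 1275 and 1276 in treated cells, overlapping groups with a log2 change of 0.02 (95% interval -0.11 to 0.14, adjusted p = 0.829 in limma). It was called higher after median centring, at 0.14 (adjusted p = 0.0492 in limma, the lowest over the alternatives tried, where the highest was 1.00). Within each array the ratio of Dcn to Prelp moved by -1.54 between the groups on the log2 scale.

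Hyaluronan is a long sugar chain made at the cell membrane by Has enzymes, bound by versican and cut down by the CEMIP protein. Cemip read 511.7, 556.7 and 545.9 in control cells and 104.0, 85.4 and 83.2 in treated cells, 5.95-fold lower (log2 change -2.57, SE 0.08, adjusted p = 2.8e-13 in limma). Its 2 other probe sets did not pass the filter. Vcan, the versican gene, read 618.7, 597.3 and 586.5 against 177.6, 209.3 and 202.4, a log2 change of -1.62 (SE 0.07), and its 2 other tested probe sets read -1.45 and -1.66. The breakdown gene and the binding partner thus both stood far below their control arrays.

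Has2, the synthase gene of this class that could be tested, went the other way. It read 86.7, 104.7 and 95.0 against 126.4, 110.9 and 110.7, a log2 change of 0.28 (SE 0.10, adjusted p = 0.0294 in limma), with the treated arrays just above the control arrays. This rise is a weak call. It was lost without a filter on low values, with a filter at the lowest 20% and with a floor of 64 (adjusted p = 0.0956, 0.0670 and 0.0587 in limma). It also ended when control replicate 1, control replicate 3 or rosiglitazone replicate 1 was left out (log2 changes of 0.21, 0.28 and 0.22), and its adjusted p ran from 0.00276 to 1.00 over the alternatives tried. The log2 ratio of Vcan to Has2 within an array moved by -1.90 between the groups.

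In the basement membrane class 6 of 8 members fell, 1 rose and 1 was not called, with a median log2 change of -0.74. Nidogens bridge laminin and collagen IV, and the 2 genes fell by different amounts. Nid2 read 1454, 1430 and 1712 in control cells and 313.9, 325.6 and 346.9 in treated cells, 4.65-fold lower (log2 change -2.22, SE 0.06, adjusted p = 5.0e-14 in limma). Nid1 read 7205, 7089 and 7098 against 4760, 4680 and 4904, a log2 change of -0.58 (SE 0.03). A dimmer probe set of Nid1, at 1681 in control and 682.1 in treated cells, read -1.30, so the gap between the nidogens depends on the probe set used. Hspg2, which encodes the heparan sulphate proteoglycan perlecan, fell by 0.86 on the log2 scale (SE 0.04), while its dimmer probe set read 0.24 and was not called.

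Laminins are trimers of an alpha, a beta and a gamma chain, and the chains did not move together. Lama2, an alpha chain of muscle, nerve and fat, read 924.4, 903.9 and 850.5 against 481.5, 476.3 and 444.5, a log2 change of -0.93 (SE 0.05). Lama4, an alpha chain of vessel and fat cell basement membranes, read 1976, 1903 and 1813 against 2073, 2049 and 2239, a rise of 0.16 (SE 0.04, adjusted p = 0.00312 in limma). The call of Lama4 was lost without a filter on low values (adjusted p = 0.0670), and its dimmer probe set rose by 0.33. Within each array the log2 ratio of Lama2 to Lama4 was -1.09 ± 0.01 in control and -2.18 ± 0.13 in treated cells (mean ± SD, n = 3 each).

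Of the beta chains, Lamb2 fell by 0.80 on the log2 scale (SE 0.06), from 359.0 ± 14.2 to 206.0 ± 4.58 (mean ± SD, n = 3 each). Lamb1 read 4994, 4982 and 4876 against 4822, 4800 and 4844, groups that did not overlap but differed by a log2 change of -0.04 (95% interval -0.09 to 0.02, adjusted p = 0.213 in limma). Its direction depended on the scaling, being 0.08 and called higher after median centring and -0.08 and called lower after quantile normalization. The gamma chain gene Lamc1 fell by 0.68 on the log2 scale (SE 0.05), and its second probe set read -0.90.

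All 5 cell-surface heparan sulphate proteoglycans fell, with a median log2 change of -0.75. Syndecans are transmembrane proteoglycans that act beside integrins. Sdc2 read 1300, 1344 and 1344 in control cells and 584.1, 593.2 and 588.2 in treated cells, 2.26-fold lower (log2 change -1.18, SE 0.04, adjusted p = 3.9e-13 in limma), and its 2 other tested probe sets read -1.23 and -1.36. Sdc1 read 2109, 1997 and 2147 against 1226, 1244 and 1258, a log2 change of -0.75 (SE 0.04), and Sdc4 also had a log2 change of -0.75 (SE 0.04). The most variable probe set of Sdc1 was dim, at 40.7 in control and 27.5 in treated cells. Read from it, Sdc1 had a log2 change of -0.64 and was not called (adjusted p = 0.0534 in limma). When each probe set was tested by itself, all those of Sdc1 were called lower. The syndecan groups were clearly separated.

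Glypicans are held in the membrane by a lipid anchor. Gpc3 was dim, with 41.1, 45.6 and 52.2 against 27.7, 26.4 and 31.7, a log2 change of -0.69 (SE 0.19) that was not called with a floor of 64, which lies above all its arrays. Gpc1 had a log2 change of -0.27 (SE 0.06), from 292.9 ± 6.61 to 242.3 ± 5.01 (mean ± SD, n = 3 each).

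More than 1 probe set read many of the members. Of 109 probe sets of the members 87 passed the filter, and 25 members had several. In 20 of the 25 all probe sets changed in the same direction, and 1 member, Sparc, had probe sets called in both directions. The exceptions in sign besides Sparc were Emilin1, Fmod, Hspg2 and Lamb1. When every probe set was tested by itself, a choice made after the data were seen, 40 members had a probe set called lower and 4 had one called higher.

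**Figure D3:**
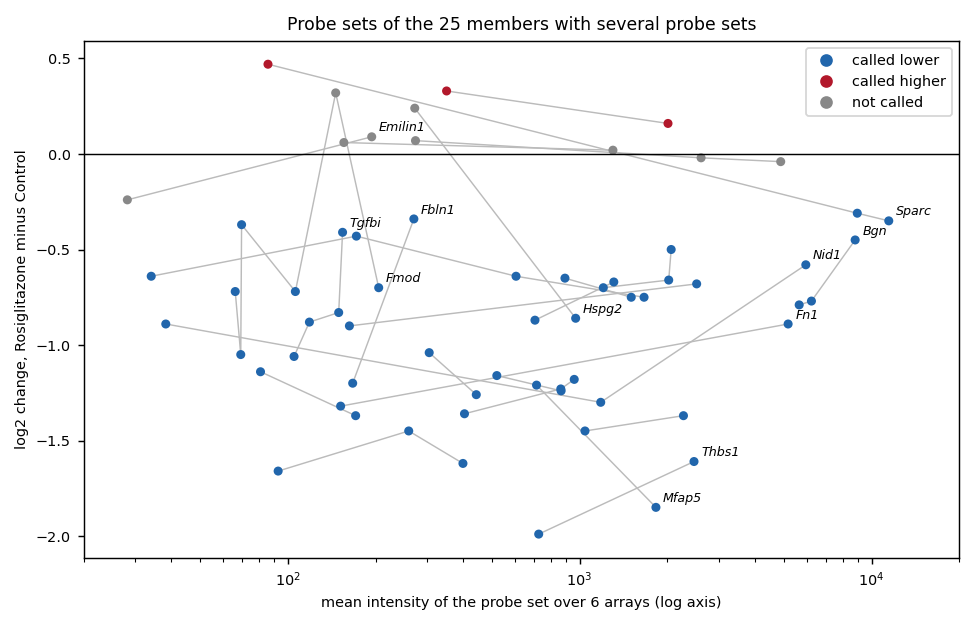
Log2 change (vertical axis) of each tested probe set against its mean intensity over the 6 arrays (horizontal axis, log scale) for the 25 members with several, with lines joining the probe sets of a gene. Blue is called lower, red called higher and grey not called. In Sparc the bright probe sets lie at -0.35 and -0.31 and the dim one at 0.47, and in Nid1 they run from -0.58 for the brightest to -1.30.

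Genes that act with these proteins were read from the same fit. Among receptors for the matrix, 10 of 22 tested were lower and 1 higher, with a median log2 change of -0.32. The share lower was 45.5%, beside 35.8% of all genes, and in the lists of other proteoglycans and other laminins below it was 41.2% and 33.3%, so these 3 shares lie near the background. Itga4, an integrin chain of fibronectin and of leukocyte adhesion, fell by 1.32 on the log2 scale, the endocytic receptor gene Lrp1 fell by 1.18, Itgb5 fell by 0.97 and Itga8 fell by 0.68. Cd36, a thrombospondin receptor and fatty acid transporter that is also in the adipocyte marker list below, rose by 0.19. The laminin receptor gene Dag1 had a log2 change of -0.05 (adjusted p = 0.124).

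Of 22 other matrix glycoprotein genes 14 fell and 3 rose (median -0.66). The 14 are 63.6% of the list as tested, beside 35.8% of all genes lower. The matricellular genes Ccn2 (-1.91) and Ccn4 (-1.43), the fibrillin gene Fbn2 (-1.61) and the fibulin gene Fbln7 (-1.31) changed most. The rises were in Mfge8 (0.49), Npnt (0.41) and Smoc1 (0.22). Of 17 other proteoglycan genes 7 fell and 3 rose (median -0.20), led by Srgn (-1.37), a proteoglycan of blood cell granules, and Omd (-1.35), with Sdc3 at -0.87. The 3 rises include Acan, whose control mean of 22.9 lay under the filter value of 27.4, so that it was tested only through its treated arrays and no size is given. Of 6 other laminin and netrin genes 2 fell and 1 rose (median -0.11), with Ntn4 at -0.47, Ntn1 at -0.43 and Lama5 at 0.28.

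Enzymes that build, sulphate or cut glycosaminoglycans, the sugar chains of proteoglycans and hyaluronan, had 22 falls and 5 rises among 37 (median -0.21). The share lower was 59.5%, beside 35.8% of all genes. The chondroitin synthase gene Chsy3 fell by 1.40 on the log2 scale, Ust fell by 1.13 and Chst12 fell by 1.05, whereas Chst11, a chondroitin sulphotransferase gene, rose by 1.31 from 356.4 to 886.2. Of 6 genes of elastic fibre cross-linking and assembly 3 fell and 1 rose, with Adamtsl4 at -1.39, Loxl3 at -1.10, Loxl1 at -0.62 and Tgm2 at 0.23. In a list of 6 genes these shares lie near the background of 35.8% lower and 23.6% higher over all genes. Of 11 genes of TGF-beta signalling 10 fell and 1 rose (median -0.58), a share lower of 90.9% beside 35.8% of all genes. The feedback inhibitor gene Smad7 stood at -0.95, the ligand gene Tgfb3 at -0.89, Nrros at -0.82 and Tgfb1i1 at -0.72, against a rise of 0.42 in Tgfb2. These calls are from limma over all genes, and the lists were not tested as groups.

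**Figure D4:**
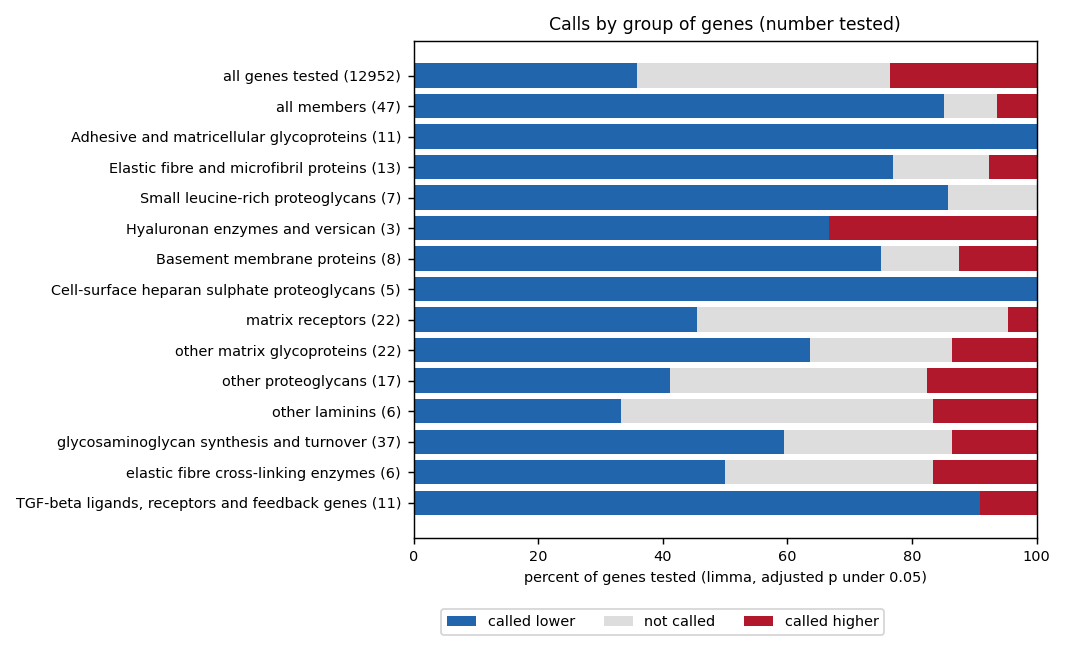
Percent of genes tested that were called lower (blue), not called (grey) or called higher (red) by limma at an adjusted p under 0.05, for all genes tested, all tested members, the 6 classes and 7 related lists, with the number tested in brackets. The blue part is 35.8% for all genes and 85.1% for the members.

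Markers of cell types were counted in the same way, and their counts stand beside 35.8% lower and 23.6% higher over all genes. Of 14 tested preadipocyte and fibroblast markers, 3 of them collagen genes, 13 were lower, and their summed intensity was 53148 to 53338 in control and 31100 to 31889 in treated arrays. Matrix genes made much of this sum, with control means of 11528 for Col3a1, 11836 for Col1a2, 4028 for Dpt and 2426 for Col1a1. Of 12 tested macrophage markers 11 were lower, with sums of 13860 to 14952 against 4939 to 5425, and of 9 smooth muscle and pericyte markers 6 were lower and 2 higher, with sums of 8696 to 9038 against 5273 to 5413. Of 10 adipocyte markers 5 were lower and 2 higher, with sums of 86030 to 87109 against 81359 to 82255, shares of 10 genes that lie near the background. The adiponectin gene Adipoq read 12741 to 13396 over the 6 arrays and was not called, like Fabp4 and Lpl. The 5 lower markers were Lep, Retn (log2 change -0.87), Pparg (-0.36), Slc2a4 (-0.26) and Lipe (-0.23). The 2 higher ones were Cidec (0.28) and Cd36 (0.19). Lep had a treated mean of 19.1, under the filter value of 27.4, so it was tested only through its control arrays and no size is given. The same holds for Cnn1, among the 6 lower smooth muscle and pericyte markers, whose treated mean also lay under 27.4. Lep and Cnn1 stay in the counts of lower markers. In these bulk samples fewer cells of a type and less RNA per cell cannot be told apart, and the part of these cell types in the matrix falls was not tested.

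Of 9 endothelial markers 2 passed the filter, Tek (54.4 to 135.3 over the arrays), which was lower, and Egfl7 (70.4 to 98.2), which was not called. The genes Pecam1 (6.03 to 20.4), Cdh5 (18.2 to 27.8) and Kdr (2.25 to 16.6) were at or near the floor on all arrays, and Emcn and Tie1 were under it throughout. The summed intensity was 275.9 to 315.3 in control and 231.7 to 251.8 in treated arrays. Mesothelial sums were 259.0 to 272.7 against 266.2 to 277.1, with 1 of 4 tested markers lower and 1 higher and Upk3b under the floor. Schwann cell sums were 258.5 to 281.3 against 576.6 to 655.1, where 1 of 3 tested markers was higher, S100b, from a mean of 159.0 to 516.5, and 1 lower, Sox10.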

How the data were processed

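Per the labels, biotinylated cRNA was prepared from the total RNA of each of the 6 samples. The deposited table holds linear intensity values for 45101 probe sets. Array medians of 44.5 to 46.7 show values already on a common level, and which software did this is not stated in the sources used here. Scaling therefore bears on every direction near 0. The highest value on an array was 16947 to 17925, and the number of arrays limits the precision.

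Control probe sets (64) were removed, then the 40% of lowest mean (under 27.4). Values under 16 were set to 16 and log2 was taken. Before that filter 34945 probe sets had 1 gene symbol, 932 several and 9160 were not listed. No tested member had an array under 16. The test was limma 3.58.1 under R 4.3.3, with lmFit on the 2 groups, no covariate and a trended eBayes. It is two-sided, adjusted over all genes by Benjamini-Hochberg, and was checked on simulated data. Arrays correlated at 0.994 to 0.996 within and 0.984 to 0.985 between groups. Alternatives covered filters, scaling, floor, probe sets, variance model, block, threshold and each array left out. The members, lists and rules were chosen with earlier results of these data known. Named were all members, with values per array for those called at a log2 change of 1 or more and for the largest change and the brightest member of each class, and up to 4 called genes of each related list. Other genes of those lists were named after their values were seen. Outside the rule for members, values per array are also given for Fn1, Tgfbi, Eln, Ltbp4, Prelp, Lama2, Lamb1 and Gpc3.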

Additional observations from a re-analysis of the deposited data

How the results depend on the processing

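Each result was recomputed under 21 other settings. Of the 47 tested members 32 kept their direction and their side of the threshold under each of them that tested the gene, the test against a 1.5-fold change aside, and 21 under that one too. A stricter filter, which dropped the dimmest 60% of probe sets, tested 43 members. The count of members called lower was 36 to 40 except in the test against a 1.5-fold change (limma's treat), where 22 members were lower and 0 higher (895 of all genes were lower and 325 higher). The count of members called higher was 3 and became 1 without a filter on low values, 5 after quantile normalization and 7 after median centring. With an array left out, 39 to 40 members were lower and 2 to 4 higher. With every probe set by itself, an alternative added after seeing the data, 40 members had a set called lower and 4 a set called higher. Signs turned, mostly without a call, for Lamb1 (0.08 after median centring, called, and 0.07 with the most variable probe set), Emilin1 (-0.07 averaged over its probe sets and -0.24 with the most variable one) and Sparc (0.47 and called with the most variable one). Prelp turned to -0.03 with array weights, -0.07 without control replicate 3 and -0.02 without rosiglitazone replicate 1. Samples that share a replicate number did not deviate together (correlations of -0.02, -0.02 and 0.06). When a block for replicate number was added, 40 members were lower and 4 higher, the added call being Ltbp4 (0.24, adjusted p = 0.0448 in limma), and 4639 of all genes were lower and 3054 higher. Signal over background limits Gpc3, Thbs3, Ltbp1, Eln and Has2, whose arrays lay at 126.4 or below. The causes of these changes were not tested.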

Other observations

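Members that neighbour each other in the genome could be set side by side. In the order of protein-coding genes of the RefSeq annotation of GRCm38.p6, Dcn and Lum are adjacent on chromosome 10 and changed by -1.52 and -1.47 on the log2 scale. Aspn and Ogn lie on chromosome 13 with 1 gene, Omd, between them, and the 3 changed by -1.26, -1.37 and -1.35. Fmod and Prelp are adjacent on chromosome 1 and changed by -0.70 and 0.02. These are 3 groups of neighbours, too few to compare with other genes, and they were looked at after the values were known.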
